A study of Mus musculus with 7 samples.

Results

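Potassium channel genes were compared between left ventricles of wild-type (WT) mice and of mice homozygous for the titin A178D missense variant. They were taken from the count table as every gene whose symbol starts with *Kcn* and that had at least 10 counts in at least 3 libraries. *Kcnd2*, *Kcnd3*, *Kcnip2* and *Kcnj8* were left out, as were antisense genes. This gave 56 of the 94 *Kcn* genes in the table, among 13894 genes tested in all, and 34 *Kcn* genes were below the minimum, 10 of them listed at 0 in every library. With the 4 genes named above set aside, the 56 were 21 of 38 pore-forming subunits of voltage-gated (Kv) channels, 11 of 12 Kv accessory subunits, 9 of 14 inward rectifier (Kir) subunits, 7 of 14 two-pore domain (K2P) subunits and 8 of 12 genes grouped as calcium-activated.

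The WT group held replicates 1, 3 and 4 (n = 3) and the A178D group replicates 1 to 4 (n = 4), each a separate heart, all labelled as left ventricle of strain C57BL/6J. The A178D allele was made by CRISPR-Cas9 repair in C57BL/6N embryonic stem cells, carries a silent change for genotyping beside the missense change, and was crossed onto C57BL/6J before WT and homozygous littermates were bred. Age and sex are not given in the labels of these libraries. Total counts ran from 33080675 in A178D replicate 4 to 54245530 in WT replicate 3, and levels are given as CPM, the counts of a gene over the TMM-normalised library size in 1e6 counts.

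Potassium channels repolarise the cardiac action potential and hold the myocyte at its resting potential. Kv channels open on depolarisation and combine pore-forming with accessory subunits, Kir channels conduct near the resting potential or under the control of G proteins or ATP, K2P channels carry a background conductance, and calcium-activated channels tie potassium flux to intracellular calcium. In the mouse ventricle repolarisation is fast and rests mainly on Kv currents, whereas the channels encoded by *Kcnh2* and *Kcnq1* are best known from larger mammals.

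The libraries carried the markers of ventricular myocardium. *Myl2*, the ventricular regulatory light chain, was at 12794 ± 654 CPM in WT and 12972 ± 885 CPM in A178D hearts (mean ± SD, n = 3 and 4). Of the atrial markers, *Myl7* did not exceed 0.152 CPM in any library, *Sln* had counts in A178D replicate 1 only, and *Bmp10* was listed at 0 in all 7 libraries, whereas *Nppa* and *Myl4*, described below, were expressed in both genotypes.

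Levels of different genes were compared per length, as CPM per kilobase of exon (CPM/kb). In WT hearts *Kcnk3*, a K2P channel of the background conductance, had the highest level at 88.8 ± 2.43 CPM/kb (SD, n = 3), followed by *Kcnj11*, the pore of the ATP-sensitive channel, at 65.3 ± 8.43 CPM/kb. *Kcng2*, an electrically silent subunit that modifies other Kv channels, stood at 43.7 ± 1.34 CPM/kb, *Kcnj5* at 30.1 ± 0.653 CPM/kb and *Kcnh2* at 26.5 ± 2.43 CPM/kb. These 5 genes held 71.8% of the summed CPM/kb of all 56, and 19 genes reached 1 CPM/kb whereas 8 were under 0.1 CPM/kb. The order of *Kcnk3*, *Kcnj11*, *Kcng2* and *Kcnj5* exceeded the spread between WT hearts, while *Kcnj2* (15.4 ± 2.83 CPM/kb) and *Kcnq1* (13.9 ± 1.69 CPM/kb) lay within it, as did *Kcnj3*, *Kcna5* and *Kcna7* at 9.48, 9.28 and 8.81 CPM/kb.

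The genes were summed by family without *Kcnd2*, *Kcnd3*, *Kcnip2* and *Kcnj8*. Of this summed WT level per length, Kir subunits made up 37.2%, Kv pore-forming subunits 33.2%, K2P subunits 25.8%, calcium-activated genes 2.33% and Kv accessory subunits 1.41%. *Kcnip2* had WT counts, given below, far above those of any accessory subunit summed here. The accessory share and its last place therefore hold only without *Kcnip2*. The summed level of Kir subunits was 132 ± 5.20 CPM/kb in WT and 126 ± 2.39 CPM/kb in A178D hearts, that of Kv pore-forming subunits 118 ± 3.06 and 115 ± 6.54 CPM/kb, and that of K2P subunits 91.5 ± 2.36 and 98.2 ± 6.38 CPM/kb (mean ± SD, n = 3 and 4). The genotypes overlapped in the summed level of each of the 5 families.

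**Figure D1:**
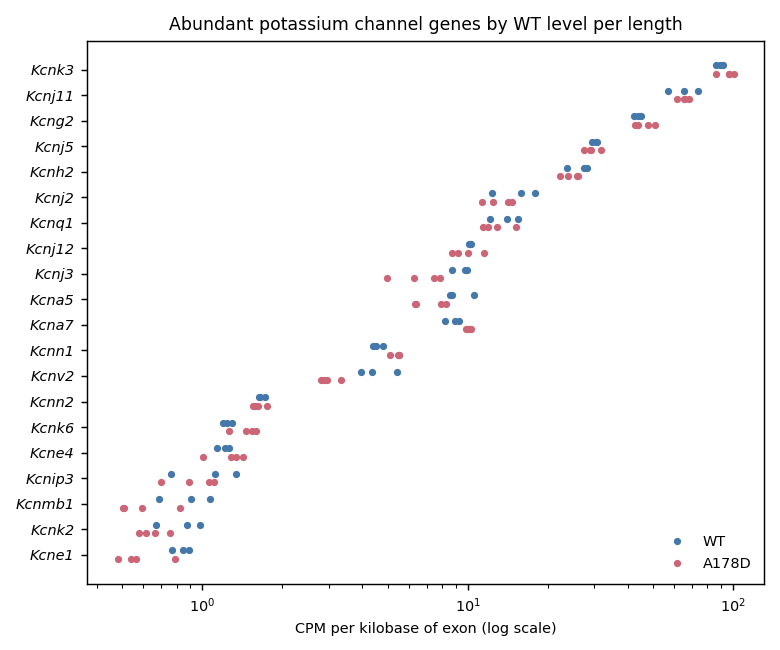
Level of 20 potassium channel genes with high WT means, in CPM per kilobase of exon on a log scale, with 1 point per heart (blue WT, n = 3; red A178D, n = 4). *Kcnk3*, *Kcnj11* and *Kcng2* lead in both genotypes, and the points of *Kcnj3* and *Kcnv2*, among others, separate by genotype.

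Between genotypes 1 of the 56 genes passed an adjusted p of 0.05 in the quasi-likelihood test of edgeR, with Benjamini-Hochberg adjustment over all genes tested. This is 1.79% of them, against 2.35% of all genes (1.04% higher and 1.31% lower in A178D). At an unadjusted p under 0.05 there were 16 (28.6%, 8 higher and 8 lower), or 15 of 55 (27.3%) without *Kcnab3*, which reached the minimum through the A178D hearts alone, against 16.7% of all genes (7.93% higher and 8.81% lower), and in 11 (19.6%, 5 higher and 6 lower) the values of the genotypes did not overlap, against 16.1% of all genes (7.61% higher and 8.52% lower). DESeq2 called 7 of the 51 genes for which it gave an adjusted p (13.7%), against 5.14% of all genes, among them *Kcnv2*, *Kcnj3*, *Kcnt1* and *Kcnq5* lower and *Kcna4* and *Kcnk1* higher. The median log2 fold change of the 56 was -0.041, against 0.0023 over all genes. This median of the 56 ran from -0.078 to -0.016 without 1 heart. It came to -0.0076 with at least 10 counts in every library and to -0.012 with length and GC offsets. Tissue was pooled over cell types in each heart, so fewer cells of a type and less RNA per cell cannot be told apart in any of these differences.

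**Figure D2:**
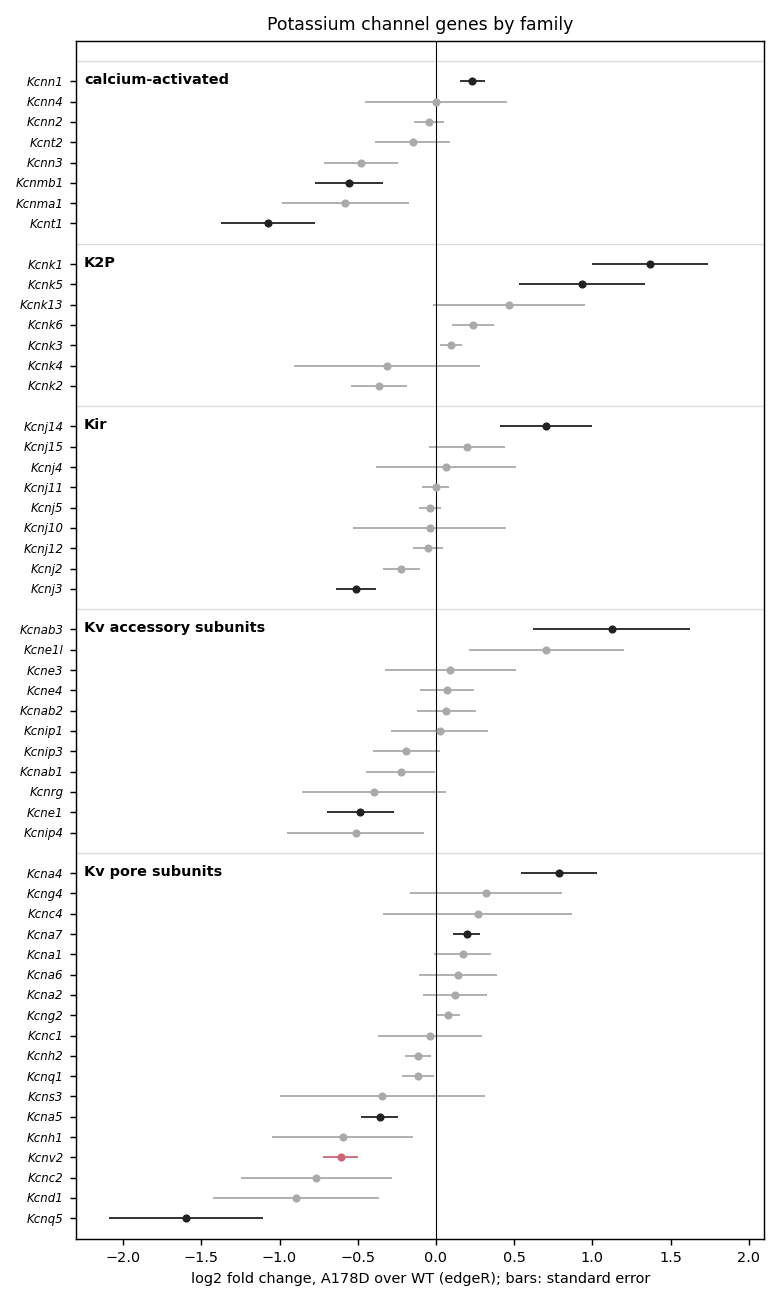
Log2 fold change of A178D over WT (edgeR) for 53 of the 56 potassium channel genes, grouped by family, with bars of 1 standard error. Red marks the gene with an adjusted p under 0.05 (*Kcnv2*), black those with an unadjusted p under 0.05 and grey the rest.

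Among the Kv pore-forming subunits, *Kcnv2* was the gene that passed the test. It encodes an electrically silent subunit that forms channels only together with other Kv subunits. *Kcnv2* (ENSMUSG00000047298, chr19:27322588-27337179 of GRCm38, plus strand) was at 22.3, 20.2 and 27.6 CPM in WT replicates 1, 3 and 4 and at 17.0, 15.0, 14.3 and 14.7 CPM in A178D replicates 1 to 4. All 4 A178D hearts lay below the lowest WT heart, WT replicate 4 was the highest, and the A178D hearts were close to each other. Its level fell to 0.654 of the WT mean, a log2 fold change of -0.61 (SE 0.11) with an adjusted p of 0.0146 (edgeR quasi-likelihood test, Benjamini-Hochberg adjustment). Without WT replicate 4 the log2 fold change was -0.47 and the edgeR Benjamini-Hochberg adjusted p 0.0779, which no longer passed, and in the other 6 fits that left out a heart it did (0.000106 to 0.0779 over all alternatives).

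*Kcng2*, the other abundant silent subunit, was at 135, 127 and 130.3 CPM in WT and 128, 142, 130.5 and 151 CPM in A178D hearts, with a 95% interval of -0.079 to 0.24 for its log2 fold change, and the genotypes overlapped.

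The Kv1 genes held values on both sides. *Kcna4*, whose channel gives the slow transient outward current, was at 1.79, 1.61 and 1.55 CPM in WT replicates 1, 3 and 4 and at 1.83, 2.73, 3.72 and 3.12 CPM in A178D replicates 1 to 4. All A178D hearts were above the highest WT heart, A178D replicate 1 by little and replicate 3 by the most, and the log2 fold change of 0.79 (SE 0.24) did not pass (edgeR Benjamini-Hochberg adjusted p 0.115) but was called by DESeq2 (Benjamini-Hochberg adjusted p 0.0450; 0.0450 to 0.293 over all alternatives). *Kcna5*, which encodes the pore of the ultrarapid delayed rectifier, was at 24.9, 30.2 and 24.5 CPM in WT and 18.3, 18.1, 23.8 and 22.7 CPM in A178D hearts. Here all A178D hearts were below the lowest WT heart, A178D replicate 3 only just, and the log2 fold change of -0.36 (SE 0.12) did not pass either (edgeR Benjamini-Hochberg adjusted p 0.134). Per length, *Kcna4* stood to *Kcna5* as 0.0425, 0.0316 and 0.0375 in WT and 0.0594, 0.0896, 0.0928 and 0.0813 in A178D hearts, so *Kcna5* was the more abundant in every heart. This ratio is among 6 pairs of subunits chosen after their values were seen, and no test was made of them. *Kcna7*, a Kv1 gene of striated muscle, was at 19.6, 20.2 and 17.8 CPM in WT and 21.6, 21.9, 22.3 and 22.4 CPM in A178D hearts, which did not overlap but differed by a log2 fold change of 0.20 (SE 0.084). The lower *Kcna1*, *Kcna2* and *Kcna6* (3.36 ± 0.370, 4.60 ± 0.334 and 2.30 ± 0.378 CPM in WT, SD, n = 3) overlapped between genotypes. *Kcna5*, *Kcna1* and *Kcna6* are neighbours on the minus strand of chromosome 6, at chr6:126532551-126535412, chr6:126640397-126646384 and chr6:126708329-126740674, and only *Kcna5* of the 3 separated by genotype.

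*Kcnq5* encodes a channel of the M-current type known from neurons and vascular smooth muscle. It was at 0.419, 0.844 and 1.67 CPM in WT and 0.297, 0.304, 0.468 and 0.185 CPM in A178D hearts. The WT hearts were spread widely and WT replicate 1 lay within the A178D range, and the whole gene rested on 6 to 68 counts per library. Its log2 fold change of -1.60 (SE 0.49) had an edgeR Benjamini-Hochberg adjusted p of 0.112, against 0.0292 and a log2 fold change of -1.96 without WT replicate 1, and 0.417 and -0.99 without WT replicate 4 (0.0292 to 0.417 over all alternatives).

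The delayed rectifier genes of larger mammals showed no difference that could be detected. *Kcnh2*, the pore of the rapid component, was at 128 ± 11.8 CPM in WT and 119 ± 8.43 CPM in A178D hearts (SD, n = 3 and 4), with a 95% interval of -0.29 to 0.061 for the log2 fold change. *Kcnq1*, the pore of the slow component, was at 56.9 ± 6.90 and 52.6 ± 6.77 CPM, with an interval of -0.34 to 0.11. *Kcnc1*, *Kcnc2*, *Kcnc4*, *Kcnd1*, *Kcng4*, *Kcnh1* and *Kcns3* had WT means of at most 1.03 CPM and overlapped between genotypes. Of these, *Kcns3* reached 10 counts in 3 WT libraries but 1 A178D library and *Kcnd1* in 3 WT but 2 A178D libraries, whereas *Kcnc4* and *Kcng4* reached it in 2 WT libraries.

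The 11 accessory subunits of Kv channels taken here, without *Kcnip2*, were low, between 0.101 CPM/kb for *Kcnab3* and 1.20 CPM/kb for *Kcne4*. *Kcnip2*, which was left out, had 4802, 5114 and 3599 counts in WT replicates 1, 3 and 4, against 170, 164 and 136 for *Kcne4*. None of the 11 passed the test. The count at an unadjusted p under 0.05 was 2 (18.2% against 16.7% of all genes), or 1 of 10, *Kcne1*, without *Kcnab3*, and by DESeq2 it was 0. *Kcne1*, the subunit that slows the channel of *Kcnq1*, was at 2.72, 2.48 and 2.85 CPM in WT and 1.81, 2.54, 1.55 and 1.73 CPM in A178D hearts. A178D replicate 2 lay within the WT range and the other 3 below it, with a log2 fold change of -0.48 (SE 0.21). *Kcnab3*, a cytoplasmic beta subunit, was at 0.533, 0.165 and 0.172 CPM in WT and 0.446, 0.702, 0.515 and 0.926 CPM in A178D hearts, where WT replicate 1 was inside the A178D range. *Kcnab3* reached 10 counts in 1 WT library and its log2 fold change of 1.12 (SE 0.50) is given as a description. This value was 1.92 without WT replicate 1 and 0.82 without WT replicate 3. *Kcnip4*, a calcium-binding partner of Kv4 channels, was at 0.399, 0.458 and 0.320 CPM in WT and 0.297, 0.304, 0.305 and 0.185 CPM in A178D hearts, without overlap but with 6 to 25 counts per library. The beta subunits *Kcnab1* and *Kcnab2*, *Kcne3*, *Kcne4*, *Kcne1l*, the Kv4 partners *Kcnip1* and *Kcnip3*, and *Kcnrg*, a soluble regulator of Kv1 assembly, overlapped between genotypes, with log2 fold changes from -0.39 for *Kcnrg* to 0.71 for *Kcne1l*. The log2 fold change of *Kcnrg* ran from -0.55 to -0.11 without 1 heart, and that of *Kcne1l* from 0.45 to 1.21. *Kcne2* was below the minimum, with 18 counts over the 7 libraries.

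In the Kir family *Kcnj3* was the gene with the lowest p. It encodes the G protein-gated subunit that joins the product of *Kcnj5* in the channel opened by acetylcholine. *Kcnj3* (ENSMUSG00000026824, chr2:55435970-55598145, plus strand) was at 45.6, 50.8 and 51.8 CPM in WT replicates 1, 3 and 4 and at 32.8, 38.8, 41.1 and 25.8 CPM in A178D replicates 1 to 4. All A178D hearts were below the lowest WT heart, with A178D replicate 4 the lowest and replicate 3 the closest to WT. The level was 0.701 of the WT mean, a log2 fold change of -0.51 (SE 0.13), and the edgeR Benjamini-Hochberg adjusted p of 0.0529 just missed 0.05. Over all alternatives it ran from 0.00527 to 0.202. It passed with DESeq2 (Benjamini-Hochberg adjusted p 0.00527), with limma-voom (0.0473), with length and GC offsets (0.0341), with no filter on low counts (0.0227) and in edgeR without WT replicate 1, without A178D replicate 3 or without A178D replicate 4, where the log2 fold changes were -0.56, -0.60 and -0.39. *Kcnj3* also passed in edgeR with the replicate number as a block (Benjamini-Hochberg adjusted p 0.0179), though these numbers do not pair the hearts.

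*Kcnj5* was at 142, 138 and 144 CPM in WT and 135, 149, 137 and 128 CPM in A178D hearts, and the genotypes overlapped. Its 95% interval for the log2 fold change was -0.19 to 0.11, narrower and nearer 0 than the -0.78 to -0.24 of *Kcnj3*. Per length, the ratio of *Kcnj3* to *Kcnj5* was 0.288, 0.331 and 0.325 in WT and 0.218, 0.234, 0.270 and 0.181 in A178D hearts, so *Kcnj5* was the more abundant subunit in all 7 hearts and the ratios did not overlap. Both genes are abundant in atria, and the atrial markers gave mixed values beside them. *Nppa*, a natriuretic peptide also induced in stressed ventricle, was at 249, 188 and 109 CPM in WT and 529, 364, 322 and 588 CPM in A178D hearts and *Myl4* at 1.90, 1.89 and 1.85 and 4.01, 2.14, 2.60 and 3.06 CPM, every A178D heart above every WT heart, while *Myl7*, *Sln* and *Bmp10* were at or near 0 in both genotypes. The log2 fold change of *Nppa* was 1.31 with an edgeR Benjamini-Hochberg adjusted p of 0.0146, which no longer passed without WT replicate 3 (0.0860), WT replicate 4 (0.0598) or A178D replicate 1 (0.0555; 0.00104 to 0.0860 over all alternatives), and *Myl4* did not pass (log2 fold change 0.65, adjusted p 0.171).

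*Kcnj2*, the main subunit of the classical inward rectifier, was at 67.0, 86.7 and 97.4 CPM in WT and 67.9, 77.2, 79.8 and 61.6 CPM in A178D hearts, and its companion *Kcnj12* at 27.9, 28.3 and 27.9 and 25.3, 23.9, 27.5 and 31.7 CPM. WT replicate 1 of *Kcnj2* lay among the A178D hearts, and the 95% intervals of the log2 fold changes were -0.48 to 0.031 for *Kcnj2* and -0.26 to 0.16 for *Kcnj12*. *Kcnj14*, a rarer member of the same subfamily, was at 2.66, 0.954 and 1.38 CPM in WT and 3.07, 2.69, 2.62 and 2.47 CPM in A178D hearts. WT replicate 1 was as high as the A178D hearts and the other 2 WT hearts were below all of them. Its log2 fold change of 0.70 (SE 0.29) had an edgeR Benjamini-Hochberg adjusted p of 0.248, which became 0.0185, with a log2 fold change of 1.23, without WT replicate 1, and 0.555, with 0.41, without WT replicate 3 (0.0185 to 0.555 over all alternatives). *Kcnj11* was at 271, 239 and 209 CPM in WT and 239.7, 241, 227 and 251 CPM in A178D hearts, with an interval of -0.18 to 0.18, and the A178D hearts lay within the WT range. *Kcnj4*, *Kcnj10* and *Kcnj15* were at 0.530 CPM, 0.432 CPM and 1.93 CPM in WT on average and overlapped between genotypes.

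Of the K2P genes none passed the test in edgeR, 2 were higher in A178D hearts at an unadjusted p under 0.05 (28.6% against 7.93% of all genes), and DESeq2 called 1, *Kcnk1*. *Kcnk1* encodes a weakly conducting background channel and was at 0.457, 0.440 and 0.443 CPM in WT replicates 1, 3 and 4 and at 1.29, 1.38, 0.609 and 1.36 CPM in A178D replicates 1 to 4. These are 24, 24 and 18 counts in WT and 52, 73, 26 and 44 counts in A178D libraries. The WT hearts were nearly equal, A178D replicate 3 was slightly above them and the other 3 A178D hearts were far above. The mean was 2.60 times that of WT, a log2 fold change of 1.37 (SE 0.37) with an edgeR Benjamini-Hochberg adjusted p of 0.0727, and without A178D replicate 3 it was 1.58 with 0.0392 (0.0151 to 0.220 over all alternatives). *Kcnk5*, an alkaline-sensitive channel, was at 0.419, 0.403 and 0.492 CPM in WT and 0.446, 0.986, 0.750 and 1.17 CPM in A178D hearts, where A178D replicate 1 lay within the WT range and the other 3 were above it.

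*Kcnk3* was far above both per length. Its 362, 354 and 343 CPM in WT and 385, 384, 342 and 399 CPM in A178D hearts overlapped, with a 95% interval of -0.054 to 0.25 for the log2 fold change, and per length *Kcnk1* reached 0.00224, 0.00221 and 0.00230 of *Kcnk3* in WT and 0.00596, 0.00641, 0.00317 and 0.00606 in A178D hearts. The mechanosensitive *Kcnk2* was at 3.31, 4.33 and 4.82 CPM in WT and 3.02, 3.72, 2.86 and 3.27 CPM in A178D hearts, with WT replicate 1 among the A178D hearts. *Kcnk6* was at 5.15 ± 0.200 CPM in WT and 6.07 ± 0.604 CPM in A178D hearts (SD, n = 3 and 4), and *Kcnk4* and *Kcnk13* were under 1 CPM on average. The median log2 fold change of the 7 K2P genes was 0.24, and it stayed above 0 in every alternative fit, at 0.14 without WT replicate 1 and 0.16 without WT replicate 4.

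The calcium-activated group also holds *Kcnt1* and *Kcnt2*, whose channels open with intracellular sodium. *Kcnt1* (chr2:25863734-25918273, plus strand) was at 2.04, 2.00 and 1.97 CPM in WT replicates 1, 3 and 4 and at 0.669, 0.930, 1.52 and 0.648 CPM in A178D replicates 1 to 4. All A178D hearts were below the WT hearts, which were nearly equal, and A178D replicate 3 was the closest to them. The log2 fold change was -1.07 (SE 0.30) with an edgeR Benjamini-Hochberg adjusted p of 0.0835, and -1.40 with 0.0326 without A178D replicate 3 (0.0225 to 0.231 over all alternatives). *Kcnt2* was at 4.34, 3.30 and 3.40 CPM in WT and 3.69, 3.98, 3.72 and 1.76 CPM in A178D hearts, which overlapped, with A178D replicate 4 the lowest. Markers of nerve cells were at most 0.198 CPM for *Snap25*, *Prph*, *Th*, *Elavl4* and *Chrna3* in every library, while *Uchl1* was called higher in A178D hearts (log2 fold change 0.66, edgeR Benjamini-Hochberg adjusted p 0.0170, and 0.0931 without WT replicate 4) and *Dbh* was at 3.95 ± 0.491 CPM in WT and 4.60 ± 0.983 CPM in A178D hearts (SD, n = 3 and 4).

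The small-conductance genes were led by *Kcnn1*, at 20.7, 20.2 and 22.1 CPM in WT and 24.9, 23.4, 25.2 and 25.2 CPM in A178D hearts. Every A178D heart was above every WT heart, by a log2 fold change of 0.23 (SE 0.081) and with an edgeR Benjamini-Hochberg adjusted p of 0.167. *Kcnn1* shares its counts with a second entry of the table that has no gene name, and the pair was counted once. *Kcnn2*, the small-conductance gene best known from atrial myocytes, was at 12.9, 12.2 and 12.4 CPM in WT and 12.1, 11.8, 11.6 and 13.1 CPM in A178D hearts, with a 95% interval of -0.25 to 0.16. *Kcnn3* was at 2.32 ± 0.583 and 1.66 ± 0.271 CPM, and *Kcnn4*, a gene of blood and endothelial cells, at 0.599 ± 0.187 and 0.614 ± 0.314 CPM (SD, n = 3 and 4), and both overlapped between genotypes.

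*Kcnmb1*, the beta subunit of the large-conductance channel in smooth muscle, was at 4.47, 2.88 and 3.79 CPM in WT and 2.48, 2.12, 2.11 and 3.46 CPM in A178D hearts. A178D replicate 4 lay within the WT range and the other 3 below it, with a log2 fold change of -0.56 (SE 0.22; -0.73 to -0.39 without 1 heart). *Kcnmb1* did not pass in edgeR or DESeq2 (Benjamini-Hochberg adjusted p 0.219 and 0.165). *Kcnma1*, the pore of that channel, was at 0.688 ± 0.168 CPM in WT and 0.451 ± 0.170 CPM in A178D hearts (SD, n = 3 and 4) and overlapped. The 7 smooth muscle markers all had log2 fold changes below 0, from -0.82 for *Cnn1* to -0.20 for *Smtn*. Of these 7 genes 6 were called lower in A178D hearts, against 1.31% of all genes, and *Smtn* did not pass (edgeR Benjamini-Hochberg adjusted p 0.212). Without 1 heart the count was 2 to 5, lowest without WT replicate 3 or WT replicate 4, and of these genes *Acta2* and *Tagln* passed in all 7 such fits. The summed level of the 7 genes was 708, 699.9 and 658 CPM in WT and 428, 510.4, 530.3 and 519 CPM in A178D hearts, the most abundant was *Smtn*, and none was near 0. *Acta2*, smooth muscle actin, was at 177, 213 and 183 CPM in WT and 108, 127, 134 and 137 CPM in A178D hearts, and its log2 fold change was -0.59 (SE 0.091). The part of smooth muscle content in the values of *Kcnmb1* was not tested.

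**Figure D3:**
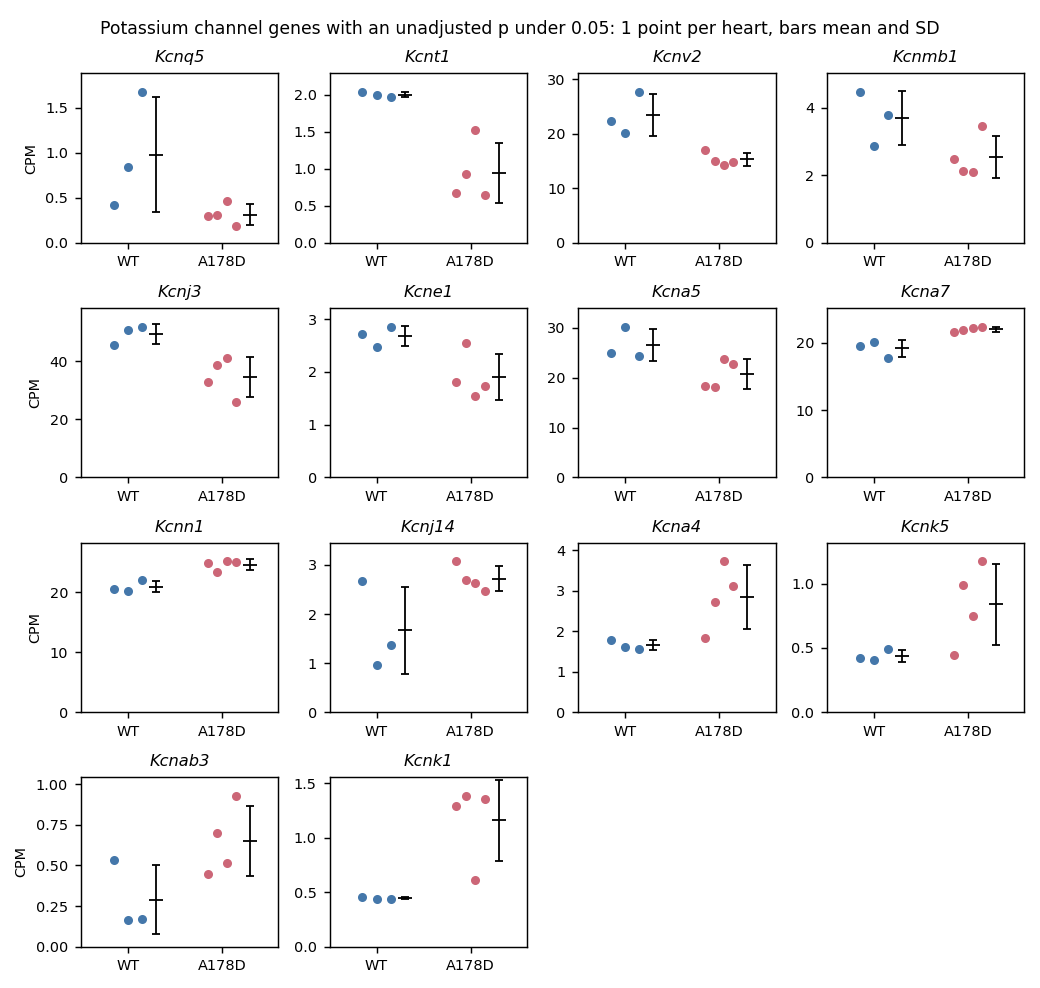
CPM of 14 of the 16 potassium channel genes with an unadjusted p under 0.05, 1 point per heart (blue WT, n = 3; red A178D, n = 4), ordered by log2 fold change, with the mean and SD beside the points and each axis starting at 0. *Kcnv2* separates with little spread among the A178D hearts, while *Kcnq5* and *Kcnj14* have 1 WT heart among the A178D values.

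The median log2 fold change was -0.057 for Kv pore-forming subunits, 0.024 for accessory subunits, -0.04 for Kir, 0.24 for K2P and -0.32 for calcium-activated genes. The sign of the first turned with offsets for length and GC content (0.021), that of the second with limma-voom (-0.029) and without WT replicate 1, WT replicate 4 or A178D replicate 4 (-0.10, -0.047 and -0.11), and that of Kir in a fit with a block (0.00072). Without WT replicate 1 the Kv pore-forming median was -0.012, without WT replicate 3 -0.097 and without A178D replicate 4 -0.14, and the Kir median came to -0.0030, -0.0043 and -0.018 when A178D replicate 2, WT replicate 3 or A178D replicate 1 was left out. The calcium-activated median came to -0.15 when genes under 10 counts in any library were dropped and to -0.14 without WT replicate 1.

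Genes whose products work with potassium channels were read from 4 lists with 41 tested genes in all, of which edgeR called 0. At an unadjusted p under 0.05 there were 3 higher and 8 lower in A178D hearts, 26.8% in all against 16.7% of all genes (7.93% higher and 8.81% lower), and DESeq2 called 3, 7.32% against 5.14%: *Gnao1* higher, *Rgs4* and *Cav1* lower. The median over the 41 genes was -0.046. *Abcc9*, the sulphonylurea receptor that joins *Kcnj11* in ventricle and vessels, was at 572, 598 and 628 CPM in WT and 555, 571, 616 and 426 CPM in A178D hearts, with A178D replicate 4 the lowest and the other 6 close together. *Abcc8*, the receptor of the atrial and pancreatic channel, was at 58.3, 67.0 and 57.4 CPM in WT and 49.6, 51.1, 53.3 and 53.9 CPM in A178D hearts, all A178D hearts lower, with an edgeR Benjamini-Hochberg adjusted p of 0.146. *Amigo1*, an auxiliary protein of Kv channels, was at 32.6 ± 4.48 CPM in WT and 29.4 ± 2.06 CPM in A178D hearts, and *Lrrc52* and *Lrrc55*, gamma subunits of the large-conductance channel and its relatives, were near 2 CPM in both genotypes.

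Around the channel of *Kcnj3* and *Kcnj5*, 11 genes of receptors, G proteins and their regulators were tested, of which 9 had a log2 fold change below 0 (median -0.087). Leaving out 1 heart gave medians from -0.080 to -0.051. At an unadjusted p under 0.05 there were 2 higher (18.2%), *Gnao1* and *Gnb5*, and 1 lower (9.09%), *Rgs4*, against 7.93% and 8.81% of all genes. *Chrm2*, the cardiac muscarinic receptor, was at 70.9, 64.0 and 64.3 CPM in WT and 62.1, 68.0, 62.2 and 42.6 CPM in A178D hearts and overlapped. *Gnao1*, a G protein alpha subunit, was at 24.0, 26.9 and 23.0 CPM in WT and 31.3, 31.4, 28.9 and 31.1 CPM in A178D hearts, all A178D hearts higher, and *Gnb5*, a G protein beta subunit, had a log2 fold change of 0.20 (SE 0.079). *Rgs4*, which speeds the shut-off of G protein signals, was at 28.9, 26.7 and 26.7 CPM in WT and 18.0, 20.9, 21.1 and 24.2 CPM in A178D hearts, all A178D hearts lower. The log2 fold changes of *Gnao1* and *Rgs4* were 0.31 (SE 0.084) and -0.38 (SE 0.10), and the edgeR Benjamini-Hochberg adjusted p 0.0697 and 0.0635. Beside DESeq2, *Gnao1* passed with length and GC offsets (Benjamini-Hochberg adjusted p 0.0178; 0.0175 to 0.242 over all alternatives) and *Rgs4* with limma-voom, with no filter on low counts and without A178D replicate 4 (Benjamini-Hochberg adjusted p 0.0480, 0.0423 and 0.0187; 0.0140 to 0.182 over all alternatives).

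The list of 19 scaffold, anchor and calmodulin genes had 1 gene higher (5.26%) and 5 lower (26.3%) at an unadjusted p under 0.05, against 7.93% and 8.81% of all genes. The largest log2 fold change among these 6 was that of *Lin7a* (-0.56), at 3.27, 4.33 and 4.43 CPM in WT and 2.53, 2.88, 2.62 and 2.84 CPM in A178D hearts, and *Cav1*, a membrane scaffold abundant in endothelium, was at 347, 397 and 373 and 304, 296, 309.9 and 331 CPM. Both were lower in all 4 A178D hearts than in any WT heart, and *Cav1* passed in edgeR with length and GC offsets and without WT replicate 1 or A178D replicate 4 (Benjamini-Hochberg adjusted p 0.0475, 0.0395 and 0.0326; 0.0131 to 0.284 over all alternatives). Of 6 genes that set the surface level or turnover of the channels, *Rnf207*, a ubiquitin ligase that acts on the channel of *Kcnh2*, was lower at an unadjusted p of 0.0167 in edgeR's quasi-likelihood test. Among 14 genes of other potassium transport, such as the sodium pump, 0 were called by edgeR, 0 by DESeq2, and 1 was higher at an unadjusted p under 0.05 (7.14% against 7.93% of all genes).

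Potassium channel promoters were read from RefSeq (GRCm38.p6), from 250 bases before to 50 after each start. Entries were matched for 40 of the 56 genes, 59 entries in all. Each was searched on both strands for the TATA box TATAAA, the GC box GGGCGG, the E-box CACGTG and the palindrome ACANNTGT, in which N is any base and which can hold the E-box. TATAAA was in 3.39% of the entries (13.6% of all 32851 promoters), GGGCGG in 45.8% (35.7%), CACGTG in 10.2% (7.15%) and ACANNTGT in 11.9% (7.38%). A match is a description of the letters and was not tested as a site.

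The promoters of *Kcna4* and *Kcna5* and of *Kcnj3* and *Kcnj5* are shown because the ratio within each pair separated the genotypes; that of *Kcnk1* to *Kcnk3* did so too, but *Kcnk3* had no matched entry. The other 3 pairs, *Kcne1* to *Kcnq1*, *Kcnmb1* to *Kcnma1* and *Kcnj12* to *Kcnj2*, overlapped. All 6 pairs were chosen after their values were seen. *Kcna4*, *Kcna5*, *Kcnj3* and *Kcnk1* each separated the genotypes alone, so the ratios add no separate result. The 4 promoters shown lie at chr2:107290339-107290638 (plus strand), chr6:126535506-126535805 (minus), chr2:55435720-55436019 (plus) and chr9:32344295-32344594 (minus) of GRCm38.p6. They are written 5′ to 3′ on the strand of the gene, with capitals for GGGCGG on either strand. *Kcna4* has 3 matches, *Kcna5* 0, *Kcnj3* 1 and *Kcnj5* 2, and none of the 4 windows holds one of the other 3 motifs.
Kcna4: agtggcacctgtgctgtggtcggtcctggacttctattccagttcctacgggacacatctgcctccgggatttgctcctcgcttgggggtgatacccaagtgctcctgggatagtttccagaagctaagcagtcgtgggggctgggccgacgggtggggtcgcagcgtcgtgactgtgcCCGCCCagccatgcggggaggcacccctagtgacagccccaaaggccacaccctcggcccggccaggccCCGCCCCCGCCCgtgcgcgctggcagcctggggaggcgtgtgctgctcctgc
Kcna5: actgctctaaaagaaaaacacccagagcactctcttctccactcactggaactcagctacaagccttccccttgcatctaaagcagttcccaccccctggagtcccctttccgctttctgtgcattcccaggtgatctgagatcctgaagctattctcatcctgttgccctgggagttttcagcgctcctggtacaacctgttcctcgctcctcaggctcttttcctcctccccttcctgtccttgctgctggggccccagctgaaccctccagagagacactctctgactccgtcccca
Kcnj3: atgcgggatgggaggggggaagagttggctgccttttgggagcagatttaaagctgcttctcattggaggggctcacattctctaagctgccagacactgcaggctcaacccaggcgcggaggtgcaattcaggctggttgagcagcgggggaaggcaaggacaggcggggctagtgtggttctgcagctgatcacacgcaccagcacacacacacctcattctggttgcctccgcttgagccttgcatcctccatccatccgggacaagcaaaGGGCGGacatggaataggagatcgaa
Kcnj5: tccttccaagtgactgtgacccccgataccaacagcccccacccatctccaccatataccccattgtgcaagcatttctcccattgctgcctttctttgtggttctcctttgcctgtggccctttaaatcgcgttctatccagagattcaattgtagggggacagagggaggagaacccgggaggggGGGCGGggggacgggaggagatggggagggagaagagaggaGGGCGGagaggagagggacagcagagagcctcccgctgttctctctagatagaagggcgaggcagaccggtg

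In GENCODE M21 the exons of 21 of the 56 genes overlap those of another gene, mostly one on the opposite strand. The library kit keeps strand, but whether the counting used it is not given in the sources used here, so reads of such pairs could be mixed. The overlap covers 31.1% of the exon length of *Kcnj3* (with *Gm26794*), 39.6% of *Kcna6*, 13.1% of *Kcnk4* (with *Catsperz* on the same strand), 8.01% of *Kcnk1* and 9.1% of *Kcng2*. *Kcnv2*, *Kcna4*, *Kcna5* and *Kcnt1* have no such overlap. *Kcnmb1* (chr11:33963013-33973641, plus strand) lies within the span of *Kcnip1* (chr11:33629339-33993152, minus strand) without sharing exon bases.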

How the data were processed

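The authors deposited a table of counts per gene, whole numbers without normalization. Per the submitters' processing notes, bcl2fastq 2.18.0.12, HISAT2 2.1.0, SAMtools 1.6 and DESeq2 1.26.0 were used with GRCm38; the counting program and annotation are not given in the sources used here. Libraries were stranded poly(A) RNA, sequenced as read pairs. Odd values made up 17.6% to 20.3% of counts from 1 to 20, so most fragments seem to be entered by both ends. Of 21257 entries, 330 were removed, mainly repeats with identical counts, leaving 20927; genes with at least 10 counts in 3 libraries were tested. Names, positions and exon lengths came from GENCODE M21. Genotypes were compared in edgeR 4.0.16 (R 4.3.3; TMM, quasi-likelihood test, Benjamini-Hochberg adjustment, no covariate, adjusted p under 0.05), which was tested on simulated data. Intervals are 95% and use the total degrees of freedom of that fit, which are the residual ones plus prior ones estimated over all genes. Alternatives were DESeq2 1.42.0, its size factors in edgeR, limma-voom 3.58.1, other count filters, an adjusted p under 0.01, the table as deposited, halved counts, offsets for length and GC content (mgcv 1.9.3), the replicate number as a block, and leaving out each library. Named genes were those with an unadjusted p under 0.05, the 3 highest per length in each family, a list of cardiac subunits, and tested genes of the assembling list; *Kcne2* and *Kcnmb4* of the cardiac list were below the minimum, and some genes that meet these rules are not reported here. Other genes are named to complete families and lists, after their values were seen. The genes and lists were chosen with earlier results of these data known.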

Additional observations from a re-analysis of the deposited data

Results flagged for a closer look

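Within the A178D group, the distance of the highest or lowest heart from the rest was compared with the range of the 4 hearts. Among 56 genes 5 stood apart. These 56 are not the 56 potassium channel genes. They are the named channel genes, the tested assembling genes, and partner and marker genes picked after their values were seen. The picked genes were *Acta2*, *Myh11*, *Tagln*, *Uchl1*, *Mal*, *Cav1*, *Gnao1*, *Rgs4*, *Lin7a*, *Mybpc3*, *Nppa* and *Cntn2*. About 1 in 20 such groups does so by chance. *Kcnk1* was low in A178D replicate 3, at 0.609 CPM against 1.29 to 1.38 CPM in the other 3 hearts. A178D replicate 4, the library with the lowest total, was low for *Kcnip4* (0.185 CPM against 0.297 to 0.305 CPM) and *Kcnt2* (1.76 against 3.69 to 3.98 CPM). *Kcnn1* was low in A178D replicate 2, at 23.4 CPM against 24.9 to 25.2 CPM. *Gnao1* was low in A178D replicate 3, at 28.9 CPM against 31.1 to 31.4 CPM. The group of 3 WT hearts was not examined in this way.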

How the results depend on the processing

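The fold changes of single genes mostly kept their direction, but counts of calls moved with the tool and with single hearts. Single genes were counted over the same 56 genes as in the comparison of single hearts above, picked partner and marker genes included. Under other settings 520 values had the direction and side of the threshold first found, 17 gained a call, 6 lost it and 9 turned sign. Without 1 heart these were 353, 11, 11 and 17. All genes called were 145 higher and 182 lower; DESeq2 gave 306 and 380, length and GC offsets 223 higher, an adjusted p under 0.01 24 and 40, and fits without 1 heart 22 to 215 higher and 31 to 238 lower, fewest when WT replicate 3 was left out and most when WT replicate 1 was. Potassium channel genes called were 0 higher and 1 lower; DESeq2 gave 3 and 4, no filter on low counts 1 and 2, limma-voom and the offsets 2 lower each, the threshold of 0.01 gave 0, and fits without 1 heart 0 to 2 higher and 0 to 3 lower. Partner genes called were 0; DESeq2 gave 1 higher and 2 lower, the offsets 1 and 1, limma-voom and no filter 1 lower each, and fits without 1 heart 0 to 2 lower. The accessory subunit median ranged from -0.11 to 0.042 without 1 heart. Signs turned for values near 0: *Kcnj11* 0.0033 in limma-voom and -0.092 to 0.097 without 1 heart, *Kcnip1* -0.029 in limma-voom, *Lrrc55* -0.00097 in limma-voom, and *Kcnn4* -0.15 in limma-voom, -0.013 with 10 counts in every library and -0.055 with halved counts. Without 1 heart the ranges were -0.13 to 0.010 for *Kcnj12*, -0.047 to 0.19 for *Kcnab2*, -0.11 to 0.23 for *Kcne3*, -0.19 to 0.14 for *Kcnip1*, -0.38 to 0.0058 for *Kcnip3*, -0.073 to 0.27 for *Kcna2*, -0.25 to 0.22 for *Kcnn4*, -0.25 to 0.047 for *Kcnt2* and -0.11 to 0.11 for *Lrrc55*. Replicate numbers do not pair the samples, since deviations of same-numbered hearts correlated at 0.0031, -0.040 and -0.042 and no heart correlated best with its own number. With the number as a block, 124 genes were higher and 147 lower, 2 potassium channel genes were lower (*Kcnj3* at an adjusted p of 0.0179 and *Kcnv2*), the Kir median was 0.00072, and the log2 fold change was 0.00072 for *Kcnj11*, 0.0016 for *Kcnj12* and -0.095 for *Kcna2*. The causes were not tested, apart from the smaller number of hearts that the fits without 1 heart have by construction. Depth limits the 12 genes with under 10 counts in some library.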

Other observations

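Lists of marker genes for other cells give further values for the same hearts, beside 1.04% of all genes called higher and 1.31% lower, and 7.93% and 8.81% at an unadjusted p under 0.05. All 6 pericyte genes had log2 fold changes below 0 (median -0.28). The quasi-likelihood test of edgeR called 0 after Benjamini-Hochberg adjustment, and 3 were lower at an unadjusted p under 0.05 and in DESeq2. Their summed level was 1029.7 ± 18.7 CPM in WT and 885 ± 102 CPM in A178D hearts (SD, n = 3 and 4), most of it *Abcc9*. The A178D sums were 882, 927, 984 and 746 CPM in replicates 1 to 4. *Abcc9* also joins *Kcnj11* in ventricle, so this sum is not a level of pericytes alone. Of 7 endothelial genes *Flt1* was called lower, with 159.6, 162 and 166 CPM in WT and 131, 125, 137 and 118 CPM in A178D hearts; the call held in 3 of 7 fits without 1 heart (adjusted p up to 0.102), and of the 7 genes 3 had a log2 fold change above 0 (median -0.075). Of 7 macrophage genes edgeR called 0, DESeq2 called 2 higher and 3 were higher at an unadjusted p under 0.05. All 7 had an edgeR log2 fold change above 0 (median 0.20, and 0.12 to 0.32 without 1 heart). Of 6 fibroblast genes edgeR called 0, DESeq2 called 1 higher, and 3 were higher and 0 lower at that unadjusted p. By log2 fold change 5 of these 6 lay above 0 and 1 below (median 0.12). Among 7 Schwann cell genes *Mal* was called higher, at 30.4, 26.5 and 29.2 CPM in WT and 46.1, 38.2, 46.4 and 43.7 CPM in A178D hearts. *Mal* was the only 1 of these 7 with an unadjusted p under 0.05. By log2 fold change 5 of them lay above 0 and 2 below (median 0.53, and 0.24 to 0.60 without 1 heart). *Uchl1*, a deubiquitinase of neurons also found in muscle, was called higher, at 7.63, 10.3 and 7.92 CPM in WT and 12.9, 12.4, 14.0 and 15.4 CPM in A178D hearts. Of 7 conduction system genes 0 were called by edgeR or DESeq2 and 1, *Cntn2*, was higher at an unadjusted p under 0.05. In this list 3 genes had a log2 fold change above 0 and 4 below 0 (median -0.045). *Cntn2*, a marker of Purkinje cells, was at 1.83, 5.13 and 3.72 CPM in WT and 10.8, 14.3, 6.14 and 5.09 CPM in A178D hearts, and the genotypes overlapped. Its log2 fold change was 1.36 with an edgeR Benjamini-Hochberg adjusted p of 0.0655 (0.0219 to 0.192 over all alternatives). This p was 0.0219 with no filter on low counts and 0.0281 without A178D replicate 4. The pacemaker channel gene *Hcn4* was at 8.39 ± 0.467 CPM in WT and 8.88 ± 1.10 CPM in A178D hearts. Of 10 ventricular genes *Mybpc3* was called higher (log2 fold change 0.30), in 3 of 7 fits without 1 heart (adjusted p up to 0.1197), and 5 of the 10 had a log2 fold change below 0. Of 5 tested skeletal muscle genes *Acta1* was called higher, while *Mylpf* (log2 fold change -0.61) and *Tnni2* (-0.14) lay below 0, uncalled, and *Myh4* had at most 2 counts in any library. Leaving out 1 heart moved *Mylpf* between -0.81 and -0.092 and *Tnni2* between -0.30 and 0.14. The 4 erythrocyte genes and the 4 Y-linked genes tested were not called by edgeR or DESeq2, 0 of them had an unadjusted p under 0.05, and the Y-linked genes were present in all 7 libraries. These values were not weighed against those of the potassium channel genes.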
